A study of Arabidopsis thaliana with 6 samples.

Results

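miR399, miR827 and miR2111 are the small RNA families best known for rising in plants that lack phosphate. They were read out here in Arabidopsis thaliana seedlings (ecotype Col-0, 10 days old) that differ in the turnover of poly(ADP-ribose), a polymer that PARP enzymes attach to proteins and PARG enzymes remove. Every row of the deposited count files named for the miR399, miR827 or miR2111 family was taken, mature and star strands alike, the star being the partner strand of the miRNA duplex. This gave 22 rows of 679. Rows with the same counts in all 6 libraries were counted once, which left 12 distinct count rows of 266 in the series. The 22 rows cover 18 intervals, because both arms of MIR2111a and MIR2111b are listed under a mature and a star name. They hold 16 distinct sequences from 9 hairpin precursors.

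In phosphate-starved plants the transcription factor PHR1 switches on MIR399 genes. miR399 acts on the transcript of PHO2, a ubiquitin-conjugating enzyme that lowers the amount of phosphate transporters and of the phosphate exporter PHO1. The non-coding transcripts IPS1 and AT4 bind miR399 without being cut and so limit it. miR827 acts on NLA, a ubiquitin ligase that also marks phosphate transporters for breakdown, and miR2111 acts on the transcript of AT3G27150, an F-box protein with kelch repeats.

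The libraries make up 6 groups of 1 library each: parp1parp2, parg1-1 and wild type (WT) seedlings, each with 100 nM flg22 or with no treatment. flg22 is a peptide of bacterial flagellin that plants recognise through the receptor FLS2. Per the labels' protocols, seedlings from MS agar plates were put into water on the day before flg22 was added. That step removed them from a medium that supplies phosphate, and it is not stated separately for untreated seedlings. Neither the time under flg22 nor the number of seedlings per library is stated in the labels. The files hold miRNA and TAS intervals only, so neither the mutated genes nor the tissue label could be checked. Nothing in the labels says that the libraries came from separate cultures. A lower count in such whole-seedling RNA can mean fewer cells that make the miRNA or less of it per cell, which cannot be told apart.

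The library totals ran from 247508 to 408805 counts. Levels below are given as scaled CPM, CPM after TMM scaling, a normalisation of library size, in which a count of 0 allows up to 7.2 to 12.1 CPM (3 counts). Both this limit and the intervals below describe counting error alone, since PCR copies of 1 molecule are not told apart. Each group being 1 library, a ratio of 2 libraries has no replicate behind it.

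The mature miR399 sequences carry the finding, because their 1 abundant form is read from a pair of loci that only the star strands tell apart. Each is shown with its seed (bases 2 to 8) in capitals, as read from the TAIR10.1 reference, whose annotated mature miRNAs coincide with 337 of the 337 mature intervals of the files.
miR399b and miR399c: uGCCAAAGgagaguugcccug
miR399a: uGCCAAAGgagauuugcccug
miR399d: uGCCAAAGgagauuugccccg
miR399e: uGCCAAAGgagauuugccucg
miR399f: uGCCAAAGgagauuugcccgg
miR827: uUAGAUGAccaucaacaaacu
miR2111a-5p and miR2111b-5p: uAAUCUGCauccugagguuua

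The miR399 forms share 1 seed and differ toward the 3′ end. Counted from 1 at the 5′ end, miR399a differs from miR399b by G13U, miR399d by G13U and U20C, miR399e by G13U, C19U and U20C, and miR399f by G13U and U20G. miR399b and miR399c (written miR399C in the files) are the same 21 bases and had the same count in every library, so each of their reads appears at both loci. miR399a is 1 base away from them, and reads with a sequencing error at that base could be counted at the wrong form. miR827 and miR2111 have seeds of their own.

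The precursors lie outside annotated protein-coding genes in 9 of 9 cases. On TAIR10, MIR399b (AT1G63005) holds its mature miRNA at chr1:23345387-23345407, minus strand. MIR399c (AT5G62162) holds the same 21 bases at chr5:24962568-24962588, plus strand. MIR827 (AT3G59884) holds miR827 at chr3:22122811-22122831, minus strand. MIR399d, MIR399e and MIR399f stand together within 2137 bases of chromosome 2.

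The sites these sequences match are shown because they connect the miRNAs to the phosphate pathway. Capitals mark bases that form a Watson-Crick pair with the miRNA, and matches were searched with up to 4 mismatch points, a G:U wobble counting 0.5. PHO2 (AT2G33770, chromosome 2, minus strand) held 5 such sites for miR399b, each in the 5′ UTR.
PHO2 site from 14282106 to 14282126: uAGGGCAAaUCUuCUUUGGCA
PHO2 site from 14281973 to 14281993: uAGGGCAuaUCUCCUUUGGCA
PHO2 site from 14281884 to 14281904: uuGGGCAAaUCUCCUUUGGCA
PHO2 site from 14281827 to 14281847: ucGaGCAAaUCUCCUUUGGCA
PHO2 site from 14281770 to 14281790: uAGaGCAAaUCUCCUUUGGCA
NLA site for miR827, chromosome 1 from 635401 to 635421: uGUUUGUUGAUGGUCAUCUAA
AT3G27150 site for miR2111a-5p, chromosome 3 from 10010764 to 10010784: gAAACCUaAGGAUGCAGAUUA
IPS1 site for miR399b, chromosome 3 from 3051224 to 3051247: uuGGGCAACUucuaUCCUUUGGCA
AT4 site for miR399b, chromosome 5 from 895149 to 895172: uuGGGCAACUucgaUCCUUUGGCA

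Against PHO2, the base at position 13 of miR399b is unpaired in 5 of 5 sites, while miR399a pairs there in the same 5 sites. The IPS1 and AT4 sites match miR399b with 3 extra bases opposite the middle of the miRNA, the arrangement known to prevent cutting. The NLA site pairs with 20 bases of miR827. The transcripts themselves were not measured in these libraries.

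A match to the PHR1-binding motif P1BS, searched as GNATATNC, which reads the same on both strands, was found within 1000 bases upstream of 7 of 9 precursors. Over all 326 annotated miRNA precursors the same window held a match in 24.5%, and at least 2 matches in 6.13%. Among the phosphate precursors 6 had at least 2. MIR827 had 3 matches, at 96, 84 and 73 bases upstream of its annotated precursor start. MIR399b had 2, at 630 and 618 bases, and MIR399c had 3, at 541, 512 and 193 bases. MIR399d and MIR399e point away from each other with 426 bases between them, so their 2 matches are the same letters. The 2 MIR2111 precursors had 0. A match is a string of letters and not a bound site, and the annotated precursor start is not the start of transcription.

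**Figure D1:**
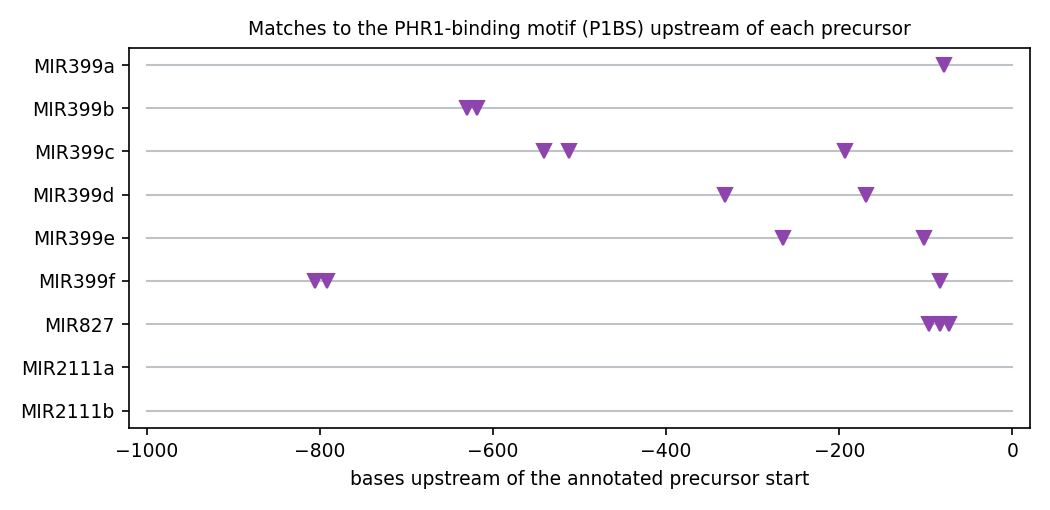
Matches to the P1BS motif in the 1000 bases upstream of each of the 9 precursors; the x axis gives the distance in bases from the annotated precursor start (0), and each triangle is 1 match, placed at its first base. MIR827 has 3 matches within 96 bases of its precursor, and MIR2111a and MIR2111b have none in the window.

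miR399b was the most abundant of these sequences in every library. It had 99 counts in parp1parp2 with flg22 and 256 in untreated parp1parp2. It had 270 counts in parg1-1 with flg22 and 185 in untreated parg1-1, and 305 in WT with flg22 and 174 in untreated WT. In scaled CPM these are 400 (95% Poisson interval 326 to 488) and 882 (777 to 996) in parp1parp2. They are 833 (737 to 939) and 547 (471 to 632) in parg1-1, and 732 (652 to 819) and 612 (525 to 710) in WT.

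parp1parp2 with flg22 was thus the lowest library and untreated parp1parp2 the highest, 2.2-fold apart, with both parg1-1 and both WT libraries between them. From high to low the order was untreated parp1parp2, parg1-1 with flg22, WT with flg22, untreated WT, untreated parg1-1 and parp1parp2 with flg22. The counting intervals of neighbours in this order overlapped in every case. miR399b ranked between 32 and 46 among the distinct sequences of a library. It made up 91.1% to 96.9% of all miR399 counts.

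miR827 was scarce. It had 15 counts in parp1parp2 with flg22 and 20 untreated, 22 in parg1-1 with flg22 and 20 untreated, and 36 in WT with flg22 and 25 untreated. Its level was 60.7 and 68.9 scaled CPM in parp1parp2, 67.9 and 59.1 in parg1-1, and 86.4 and 88.0 in WT, with flg22 and untreated. Both WT libraries were above the 4 mutant libraries, but the highest and lowest library were 1.49-fold apart and all counting intervals overlapped. miR399b, of the same length, had 9.34 times the summed counts of miR827.

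**Figure D2:**
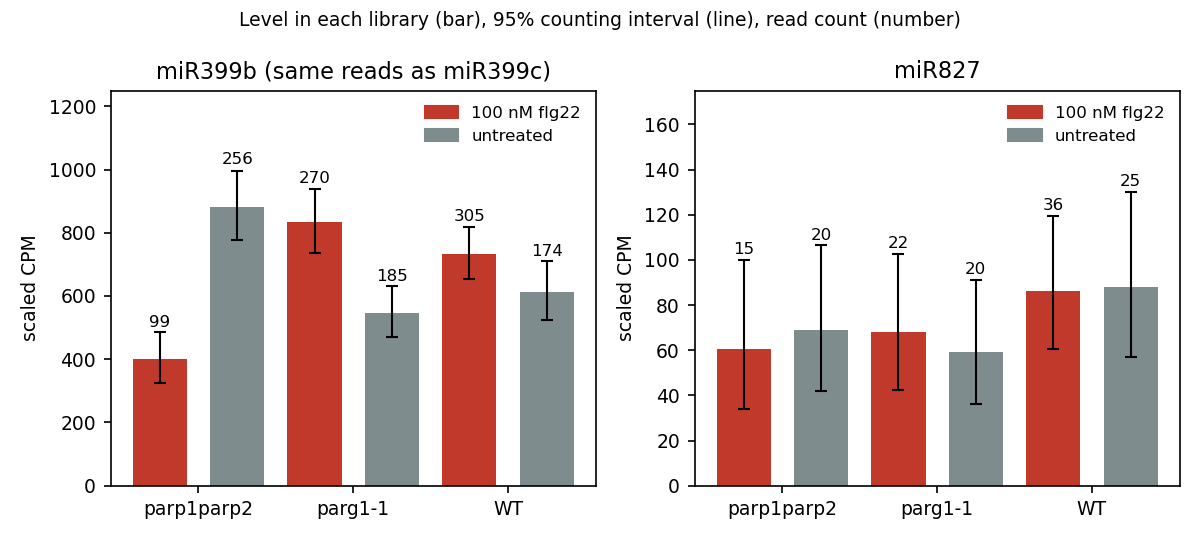
Scaled CPM of miR399b (left) and miR827 (right) in each of the 6 libraries; bars are single libraries, red with 100 nM flg22 and grey untreated, lines are 95% Poisson intervals for counting error and the numbers are read counts. For miR399b the flg22 bar is below the untreated bar in parp1parp2 (400 against 882) and above it in parg1-1 and WT, while the miR827 intervals all overlap.

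The remaining sequences were near the limit of detection. miR399a had 4 counts in parp1parp2 with flg22 and 7 untreated, 4 and 4 in parg1-1, and 3 and 7 in WT. miR399f and miR399d reached at most 1 count in a library, and miR399d was read in WT libraries only. miR399f-star had 0 counts in parp1parp2 with flg22 and 2 untreated, 1 and 0 in parg1-1, and 1 and 0 in WT. miR399a-star had 1 and 2 in parp1parp2, 4 and 1 in parg1-1, and 2 and 1 in WT. miR399e and its star, miR399d-star and miR2111a-3p were at 0 in all 6 libraries. The shared miR2111a-5p and miR2111b-5p sequence had 1 count, in untreated parg1-1, where miR827-star also had its 1 count. miR2111b-3p had 3 counts in untreated parp1parp2 and 3 in WT with flg22, and 0 in the other libraries. Changes in miR2111 were therefore not detectable at this depth.

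The star strands tell the miR399b and miR399c hairpins apart. miR399c-star (annotated by RefSeq as miR399c-5p) had 1 count in parp1parp2 with flg22 and 11 untreated, 4 and 1 in parg1-1, and 4 and 0 in WT. miR399b-star had 0 and 2 in parp1parp2, 3 and 0 in parg1-1, and 1 and 3 in WT. Over the 6 libraries this is 21 counts for miR399c-star and 9 for miR399b-star. Their sequences, which differ at 4 positions, are given because they are the reads that belong to 1 locus.
miR399c-star: gGGCAUCUuucuauuggcagg
miR399b-star: gGGCGCCUcuccauuggcagg

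MIR399b and MIR399c share the mature strand, so their star share was pooled, as the counts of both stars over star and mature counts. This share was 1% in parp1parp2 with flg22 (exact binomial 95% interval 0.0253 to 5.45%) and 4.83% untreated (2.6 to 8.12%). It was 2.53% (1.02 to 5.14%) and 0.538% (0.0136 to 2.96%) in parg1-1, and 1.61% (0.526 to 3.72%) and 1.69% (0.351 to 4.87%) in WT, with flg22 and untreated. The intervals of all 6 libraries overlapped. The median star share over 86 hairpins with at least 50 counts, summed over the 6 libraries, was 1.31%. There each mature sequence entered once with the star of 1 locus, while the shares above pool both stars, so the measures differ. MIR827 had 1 star count beside 138 mature counts over all libraries. MIR399a had 11 beside 29, too few to enter that median, and its difference from other hairpins was not tested.

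The first question was whether flg22 moved these miRNAs across genotypes. An additive model of genotype and treatment was fitted to the 187 loci that reached 10 counts in 2 or more libraries. The members that entered were 3 rows with 2 sequences: ath-miR399b with its copy ath-miR399C, and ath-miR827. The other 19 rows were too low to enter. The log2 fold change of miR399b was -0.07 ± 0.34 (SE; adjusted p = 0.996 by edgeR), lower with flg22 in 1 of 3 genotypes, and miR827 had 0.00 ± 0.27 (edgeR adjusted p = 0.997). Of all loci 0% were called, with 1 at an unadjusted p under 0.05 and the same numbers by DESeq2. The value of miR399b depended on which pair entered. Without untreated parp1parp2, parp1parp2 with flg22 or both it was 0.43, 0.55 and 0.48 ± 0.17, and each of these settings takes the parp1parp2 pair out of the estimate. Without parg1-1 with flg22 or untreated parg1-1 it was -0.41 and -0.43. The edgeR adjusted p over these 5 settings lay between 0.556 and 0.999.

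The genotypes themselves gave no call among the members when both treatments entered the fit. In parp1parp2 against WT, miR399b had -0.08 ± 0.42 (edgeR adjusted p = 0.972) and miR827 -0.42 ± 0.34 (edgeR adjusted p = 0.972), where 0.535% of loci were called. In parg1-1 against WT, miR399b had 0.04 ± 0.41 (edgeR adjusted p = 0.96) and miR827 -0.45 ± 0.34 (edgeR adjusted p = 0.489), where 10.7% of loci were called. In parp1parp2 against parg1-1, miR399b had -0.12 ± 0.42 and miR827 0.03 ± 0.35, where 1.07% of loci were called. Without the untreated parp1parp2 library miR399b was called lower in parp1parp2 than in parg1-1, with a log2 fold change of -0.97 ± 0.33 (edgeR adjusted p = 0.0261), and 26 of 184 loci were called in that fit. There parp1parp2 is its flg22 library alone, assumed to vary like the other groups. Without parp1parp2 with flg22 the value was 0.69 ± 0.27 (edgeR adjusted p = 0.264), so sign and call followed the library that was kept.

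Within genotypes the flg22 ratio of miR399b was below 1 in parp1parp2 and above 1 in parg1-1. In WT its interval included equality in the main setting only. In parp1parp2 it was 2.2-fold lower with flg22, a log2 ratio of -1.14 (95% interval -1.49 to -0.80, exact conditional binomial). In parg1-1 the log2 ratio was 0.61 (0.33 to 0.89) and in WT 0.26 (-0.02 to 0.54). The WT interval left out 0 with DESeq2-type size factors (0.04 to 0.59) and with library totals only (0.015 to 0.565). It also did so with identical sequences counted once (0.16 to 0.71). A pair was counted as apart where its ratio reached 2-fold, its interval left out equality and its higher library held 50 counts or more. By this measure miR399b was apart in parp1parp2, where 2.67% of loci were apart and lower and 3.74% apart in either direction. No member (0) was apart in parg1-1 or WT, where 1.07% and 3.74% of loci were. miR827 had log2 ratios of -0.18 (-1.25 to 0.86) in parp1parp2, 0.20 (-0.74 to 1.15) in parg1-1 and -0.03 (-0.80 to 0.77) in WT, so at this depth a ratio as low as that of miR399b in parp1parp2 lay inside the miR827 interval there.

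The other miR399 reads are counted apart from those of miR399b, though a sequencing error could place miR399b reads under miR399a. They were summed after the counts had been seen and carry no test. All 10 other miR399 sequences had 6 counts in parp1parp2 with flg22 and 25 untreated, 17 and 6 in parg1-1, and 13 and 12 in WT. Their log2 ratios were -1.83 (95% interval -3.40 to -0.51) in parp1parp2, 1.57 (0.16 to 3.20) in parg1-1 and -0.44 (-1.69 to 0.83) in WT. The sign was that of miR399b in both mutants and not in WT. Among these reads, the 6 star sequences of the family had 2 counts in parp1parp2 with flg22 and 17 untreated, 12 and 2 in parg1-1, and 8 and 4 in WT. Their log2 ratios were -2.86 (95% interval -6.01 to -0.78) in parp1parp2, 2.65 (0.48 to 5.85) in parg1-1 and 0.45 (-1.45 to 2.63) in WT. In the same pairs the 242 star sequences outside these families had log2 ratios of 0.15 (0.09 to 0.22), 0.09 (0.04 to 0.14) and -0.32 (-0.37 to -0.27). Abundant stars dominate that sum, miR398b-star alone having a mean of 1808 counts per library. It therefore does not show how far scarce stars varied. The WT intervals of both miR399 sums included 0, and 11 of the 17 star counts of untreated parp1parp2 were miR399c-star.

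**Figure D3:**
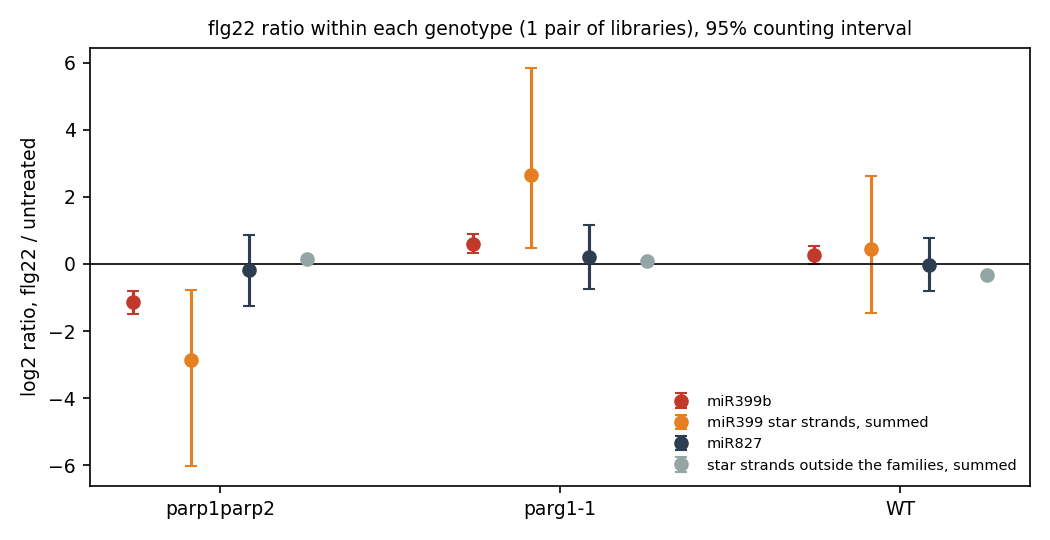
Log2 ratio of the flg22 library to the untreated library within each genotype, for miR399b, the summed miR399 star strands, miR827 and the summed star strands outside the families; lines are 95% counting intervals for 1 pair of libraries. miR399b and the miR399 star strands lie below 0 in parp1parp2 (-1.14 and -2.86) and above it in parg1-1 (0.61 and 2.65), and the intervals of miR827 include 0 in all 3 genotypes.

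The difference between genotypes was tested with a term for the flg22 response of 1 genotype, set against the response shared by the other genotypes. For parp1parp2 this difference was -1.57 ± 0.42 (SE, log2) for miR399b, which fell with flg22 relative to parg1-1 and WT (edgeR adjusted p = 0.00528). The call covers the 2 rows of the 1 shared sequence, among 5.88% of loci called, or 4.28% called lower. Both shares include these rows and count copies of a sequence separately, the other loci called lower being 6 miR395 loci with 2 sequences. With identical sequences counted once, 5 of 136 were called. The response of miR827 differed by -0.26 ± 0.69 (edgeR adjusted p = 0.935). The miR399b call was lost with DESeq2-type size factors in edgeR (adjusted p = 0.289). There the estimate was also -1.57, with a smaller SE (0.30), but no locus (0) was called and 15 had an unadjusted p under 0.05. The SE is derived from the test statistic and leaves out its degrees of freedom, so the smaller SE does not mean a more precise estimate. The call was also lost in DESeq2 (adjusted p = 0.36). The adjusted p in the other settings lay between 0.00231 and 0.0372, and the estimate between -1.75 and -1.45 over all settings. The term rests on the pair of parp1parp2 libraries and leaves 1 residual degree of freedom. In this fit edgeR took the spread around its trend as common to all loci (infinite prior degrees of freedom). Its p-value therefore does not measure the spread of miR399b itself.

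Set against each other genotype, the log2 response of miR399b in parp1parp2 differed by -1.75 from that in parg1-1 (-2.18 to -1.32, a 95% interval for counting error) and by -1.40 from that in WT (-1.83 to -0.97). These comparisons share the parp1parp2 libraries. The response in parg1-1 exceeded that in WT by 0.35 (-0.03 to 0.73). A term for the response of parg1-1 gave 1.04 ± 0.68 for miR399b (edgeR adjusted p = 1), where 0% of loci were called, 2 at an unadjusted p under 0.05 with edgeR and 1 with DESeq2. A term for WT gave 0.51 ± 0.80 (edgeR adjusted p = 0.869), where 2.67% of loci were called.

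**Figure D4:**
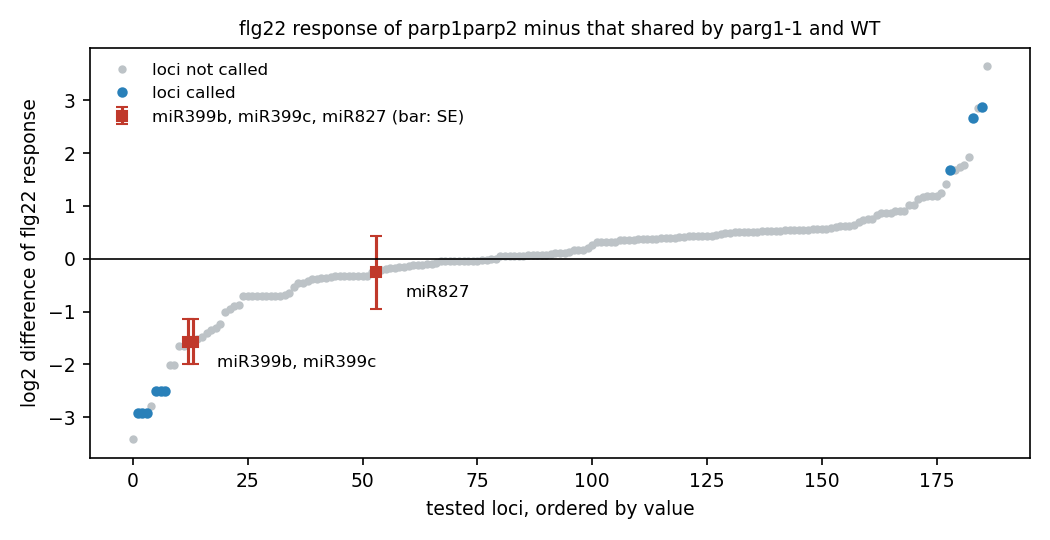
Difference of the log2 flg22 response of parp1parp2 from that shared by parg1-1 and WT, for each of the 187 tested loci in order of value; blue points are loci called at an edgeR adjusted p under 0.05, and red squares with SE bars are the miR399 and miR827 rows. miR399b and miR399c share 1 value, -1.57, and miR827 lies at -0.26 among the loci that were not called.

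Between genotypes within 1 treatment, miR399b was 2.08-fold lower in parp1parp2 than in parg1-1 with flg22, a log2 ratio of -1.06 (-1.40 to -0.72). This pair had 11.2% of loci apart. With identical sequences counted once the ratio was -0.97 and under 2-fold. Untreated, the log2 ratio of parp1parp2 to parg1-1 was 0.69 (0.41 to 0.97), where 1.6% of loci were apart. Against WT, parp1parp2 had -0.87 (-1.21 to -0.54) with flg22 and 0.53 (0.24 to 0.81) untreated, where 4.28% of loci were apart in each pair. parg1-1 against WT had 0.19 (-0.05 to 0.43) with flg22 and -0.16 (-0.47 to 0.14) untreated, where 9.63% and 4.81% were apart. miR827 had intervals that included 0 in all 6 of these pairs.

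By the root mean square difference of centred log2 levels over the 6 libraries, the pattern most like that of miR399b was that of miR156j (0.209), followed by miR164c-star (0.285) and miR395b (0.287), among 135 other tested sequences with a median of 0.542. The first pair rest on 6 to 17 counts per library. miR395b, which acts on sulfate assimilation genes, had 162 scaled CPM in parp1parp2 with flg22 and 475 untreated, 408 and 245 in parg1-1, and 487 and 218 in WT. It thus had its lowest level in parp1parp2 with flg22, as miR399b did, which follows in part from its being picked for likeness. Its highest level was in WT with flg22, narrowly above untreated parp1parp2, the library in which miR399b was highest.

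Further families reported to change in phosphate-starved Arabidopsis are miR778 and miR156, which rise, and miR169, miR395 and miR398, which fall. miR778 had at most 2 counts and was not tested. Of the 35 tested loci of the other 4 families, with 17 sequences, 0 were called for flg22 across genotypes and 0 in parp1parp2 against WT. In parg1-1 against WT 8 were called lower, of which 7 are the 1 sequence of miR169h to miR169n (-3.05 ± 0.71, edgeR adjusted p = 0.0264) and 1 is miR398a (-3.21 ± 0.65, edgeR adjusted p = 0.0263). Of all loci 10.7% were called in that comparison, and the miR169h sequence was scarce, with a mean of 8.33 counts per library. For the flg22 response of parp1parp2, 6 loci with 2 miR395 sequences were called lower and miR398a was called higher, where 5.88% of loci were called. The shared sequence of miR398b and miR398c, with a mean of 26520 counts beside 160 for miR398a, was not called (0.53 ± 0.33, edgeR adjusted p = 0.567). The differences of the called sequences were -2.49 ± 0.46 for miR395b (edgeR adjusted p = 6.22e-06), -2.92 ± 0.77 for miR395a (edgeR adjusted p = 0.00506) and 2.86 ± 0.46 for miR398a (edgeR adjusted p = 5.42e-07). With DESeq2-type size factors in edgeR 0 loci were called for this term, so these calls were lost as well, and DESeq2 called 2 of the 187 loci. The median of the 35 loci there was -0.42, beside 0.11 over all 187 loci. Both medians count copies of a sequence separately. The 35 loci also pool families said to rise with families said to fall, so no direction was read from this median. For the flg22 response of WT, miR395a was called higher at 3 loci, with 2.91 ± 0.66 (edgeR adjusted p = 0.00108), where 2.67% of loci were called. That call was lost in DESeq2, which called 0 loci for this term, 5 having an unadjusted p under 0.05. These values and those of miR399b rest on the same libraries.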

How the data were processed

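Small RNA (about the size of miRNAs) was recovered from a gel and sequenced from 6 libraries, per the labels' protocols. The authors deposited whole-number read counts for 679 named intervals per library. The submitters' processing notes name TAIR10, bedtools and Bowtie 0.12.8 without saying what each did. How reads were assigned is not stated there, and the files carry no strand, which was taken from the TAIR10.1 annotation of RefSeq. Reads of a sequence that stands at several loci appear at each of them.

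The counts were tested by quasi-likelihood (glmQLFit, glmQLFTest, both sides) in edgeR 4.0.16 with limma 3.58.1 and R 4.3.3, after TMM scaling, on the 187 loci that reached 10 counts in 2 or more libraries, and called at a Benjamini-Hochberg adjusted p under 0.05. Each edgeR SE given here is the size of the log2 fold change divided by the square root of the F statistic of its test. The additive fits leave 2 residual degrees of freedom and the fits with a response term 1. In the parp1parp2 and WT response fits edgeR took the spread around its trend as common to all loci (infinite prior degrees of freedom), and in the parg1-1 response fit the prior had 8.47. The p-values describe spread among these libraries only, and that spread may be technical. DESeq2 1.42.0, other scalings, no count filter (406 loci), identical sequences once (136) and each library left out were alternatives. The fits were tested on simulated data.

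The members, lists and tests were chosen with earlier results of these data known. Named were all members, the other phosphate-responsive families, and the 3 sequences most like a called member. Likeness used a prior count of 0.5.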

Additional observations from a re-analysis of the deposited data

Results flagged for a closer look

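The flg22 response of miR399b differed between genotypes by the test of the difference itself. It was lower in parp1parp2 than in parg1-1 and WT with a difference of -1.57 ± 0.42 on the log2 scale (SE; adjusted p = 0.00528 by edgeR), with 99 counts in parp1parp2 with flg22 and 256 untreated. The call was lost with DESeq2-type size factors in edgeR (adjusted p = 0.289) and in DESeq2 (adjusted p = 0.36). The log2 ratio of flg22 to untreated was -1.14 in parp1parp2, 0.61 in parg1-1 and 0.26 in WT. The WT interval included 0 in the main setting and left it out with other scalings or identical sequences once. The cause was not tested, and a deviation of either parp1parp2 library cannot be told apart from a response of the genotype.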

How the results depend on the processing

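No paired analysis was possible because each group has 1 library, so replicate numbers pair nothing. The additive fit of genotype and treatment already compares flg22 within genotypes. The response terms allow no library to be left out, since no residual degree of freedom would remain. For the flg22 response of parp1parp2, miR399b was 1 called sequence, and 0 member sequences were called with DESeq2-type size factors or DESeq2; all called loci numbered 11, against 0 and 2, and 5 with identical sequences once. The cause was not tested. Ratios apart over the 9 pairs numbered 2 for the members, and 1 when each distinct sequence entered once. In parp1parp2 against parg1-1 the called member sequences ran from 0 to 1 when 1 library was left out, and all called loci from 0 to 26. All called loci there numbered 2, against 9 with DESeq2-type size factors, 4 with no count filter, 13 with identical sequences once and 10 with DESeq2. In parg1-1 against WT they numbered 20, against 12 with identical sequences once and 12 with DESeq2. In parp1parp2 against WT they numbered 1, against 2 with no count filter. For the WT response they numbered 5, against 3 with no count filter, 1 with identical sequences once and 0 with DESeq2, where 5 had an unadjusted p under 0.05. When 1 library was left out, all called loci ran from 0 to 32 in parg1-1 against WT, from 0 to 8 in parp1parp2 against WT, and from 0 to 3 for flg22.

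No value that changed sign passed the threshold. With 1 library left out, miR399b ran from -0.43 to 0.55 for flg22, -0.46 to 0.49 in parg1-1 against WT, -0.95 to 0.80 in parp1parp2 against WT and -0.97 to 0.69 in parp1parp2 against parg1-1. miR827 ran from -0.0945 to 0.19 for flg22 and -0.11 to 0.25 in parp1parp2 against parg1-1. miR399b was 0.48 for flg22 without both parp1parp2 libraries (added after the data were seen), -0.0116 in parg1-1 against WT with library totals only, and 0.0781 and 0.0389 in parp1parp2 against WT and parg1-1 with identical sequences once. miR827 was -0.0418 in parp1parp2 against parg1-1 with no count filter. For the WT response it was 0.0175 with DESeq2-type size factors, 0.0019 with library totals, 0.18 with identical sequences once and 0.0252 with DESeq2, against -0.04.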
